A study of Mus musculus with 6 samples.

Results

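The 10 genes described here, Per1, Per2, Per3, Cry1, Cry2, Clock, Nr1d1, Nr1d2, Dbp and Tef, belong to the circadian clock, and were taken as every probe set whose only gene symbol in the platform's annotation was one of these names. They had 24 of the 45037 non-control probe sets and made up 10 of the 18193 genes with a probe set. The study measured RNA of pooled cumulus-oocyte complexes, the oocyte with the cumulus cells around it, from wild type immature female mice on Affymetrix arrays, with 2 arrays in each of 3 groups. All females had received equine chorionic gonadotropin (eCG), a hormone that makes follicles grow, for 48 h. The groups differed in human chorionic gonadotropin (hCG, the hormone that triggers ovulation), which was not given, or was given 8 h or 16 h before collection. Per the labels, the first came from ovaries and were called expanded, and the others came from the oviduct, although ovulation is usually not complete 8 h after hCG. Whether the first had expanded was not tested, and the cumulus genes Has2, Ptx3, Tnfaip6 and Ptgs2, given below, were lowest in them. The hours after hCG are also hours of the day, so clock time and time after hCG cannot be told apart in any comparison. Nor can hormone and place of collection in the comparisons with complexes without hCG. Whether the place also differed between the 8 h and 16 h groups was not tested. The labels do not say that the replicates came from separate animals, so p-values measure the spread between these pools alone, which may be technical.

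The molecular clock is a feedback loop found in most cells. CLOCK and its partner BMAL1, the product of Arntl, switch on the Per and Cry genes, whose proteins then inhibit that pair. In a second loop, REV-ERBα and REV-ERBβ, made from Nr1d1 and Nr1d2, repress Arntl, which ROR receptors activate. DBP and TEF are PAR bZIP transcription factors that carry the rhythm to output genes through the D-box, a site that the repressor NFIL3 also binds. In the ovary, clock genes are known in granulosa, cumulus and theca cells, and luteinizing hormone, whose receptor hCG also activates, is known to act on them.

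Promoter sequences are shown for 4 genes, Per1, which was higher 8 h after hCG, and Per3, Nr1d1 and Tef, which were lower then, so that letters matching motifs of clock factors can be seen beside the values. They were picked because their windows hold a match. The windows of Clock and Nr1d2, which were also called at 8 h, and those of Dbp and the second start of Per1 held none. The sequences are RefSeq windows of build GRCm38.p6, from 250 bases before to 50 bases after an annotated start, written 5′ to 3′ on the gene's strand, with motif matches in capitals. The windows lie at chr11:69098699-69098998 (plus strand) for Per1, chr4:151044616-151044915 (minus strand) for Per3, chr11:98775328-98775627 (minus strand) for Nr1d1 and chr15:81802423-81802722 (plus strand) for Tef.
Per1: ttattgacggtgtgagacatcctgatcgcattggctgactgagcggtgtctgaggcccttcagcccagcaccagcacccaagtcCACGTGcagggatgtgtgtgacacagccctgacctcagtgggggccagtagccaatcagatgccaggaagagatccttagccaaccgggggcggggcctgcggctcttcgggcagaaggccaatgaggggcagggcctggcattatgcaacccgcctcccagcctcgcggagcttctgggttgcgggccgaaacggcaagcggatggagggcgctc
Per3: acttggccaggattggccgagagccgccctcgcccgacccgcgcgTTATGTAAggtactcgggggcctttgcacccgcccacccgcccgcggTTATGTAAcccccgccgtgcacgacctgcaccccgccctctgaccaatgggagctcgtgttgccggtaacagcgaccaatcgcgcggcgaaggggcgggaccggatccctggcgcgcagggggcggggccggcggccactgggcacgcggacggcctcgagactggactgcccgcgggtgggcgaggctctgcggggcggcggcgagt
Nr1d1: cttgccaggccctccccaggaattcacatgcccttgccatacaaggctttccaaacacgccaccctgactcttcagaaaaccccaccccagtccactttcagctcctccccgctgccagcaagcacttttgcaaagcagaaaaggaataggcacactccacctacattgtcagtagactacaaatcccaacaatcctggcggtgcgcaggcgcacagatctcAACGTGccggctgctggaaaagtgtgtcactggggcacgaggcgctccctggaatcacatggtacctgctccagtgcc
Tef: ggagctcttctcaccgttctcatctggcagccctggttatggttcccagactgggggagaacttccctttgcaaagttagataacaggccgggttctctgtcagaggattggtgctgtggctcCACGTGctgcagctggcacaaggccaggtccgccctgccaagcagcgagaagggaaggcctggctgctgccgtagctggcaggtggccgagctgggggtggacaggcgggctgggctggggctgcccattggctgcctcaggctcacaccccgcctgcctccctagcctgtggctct
The capitals mark an E-box (CACGTG), the site of CLOCK and BMAL1, in Per1, which begins 166 bases before the start, and in Tef, 127 bases before it. In Nr1d1 they mark an E′-box (CACGTT, read here on the other strand as AACGTG), a variant of that site, 28 bases before the start. In Per3 they mark 2 copies of the D-box (TTATGTAA), 205 and 158 bases before the start.

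The table held 13 such windows for 9 of the 10 genes, and both strands were searched. An E-box was present in 4 windows, of Per1, Cry1 and Tef, while 7.15% of all 32851 windows had one. An E′-box was present in 3, of Cry1, Cry2 and Nr1d1, against 4.68% of all. A D-box, searched as TTATGTAA or TTACGTAA, was present in 1, that of Per3, against 1.06% of all. The cAMP response element TGACGTCA and the response element that REV-ERB and ROR receptors share were in 0 of the 13, and in 1.79% and 0.384% of all. No matches overlapped. A match describes these letters only.

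The arrays gave log2 intensities, used as deposited, where a difference of 1 is a factor of 2. Values of different probe sets are on different scales, so only changes of a probe set between groups are compared. Where a gene had several probe sets, its value is that of the brightest, and a probe set with a mean under the 40th percentile, 5.62, was called dim and was not tested. All 10 genes and 19 of their 24 probe sets were above that limit. Changes are differences of log2 group means ± SE from a limma fit to all 6 arrays, with p-values adjusted over all 27022 tested probe sets, and a gene was called at an adjusted p under 0.05. Array medians lay between 6.14 and 6.27, and r between arrays of a group was between 0.991 and 0.996. The signal over background is unknown.

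By 8 h after hCG the clock genes had moved in both directions. Per1 and Clock were higher than without hCG, and Per3, Nr1d1, Nr1d2 and Tef were lower. Against no hCG, 6 of the 10 genes were called at 8 h, 2 upward and 4 downward, where 37.4% of all 13559 tested genes were called, 16.9% upward and 20.5% downward. The median size of change, without its sign, was 0.76 for the 10 genes and 0.34 for all genes, and their median change with its sign was 0.04 against −0.02. In such bulk samples, fewer cells of a type and less RNA per cell cannot be told apart.

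**Figure D1:**
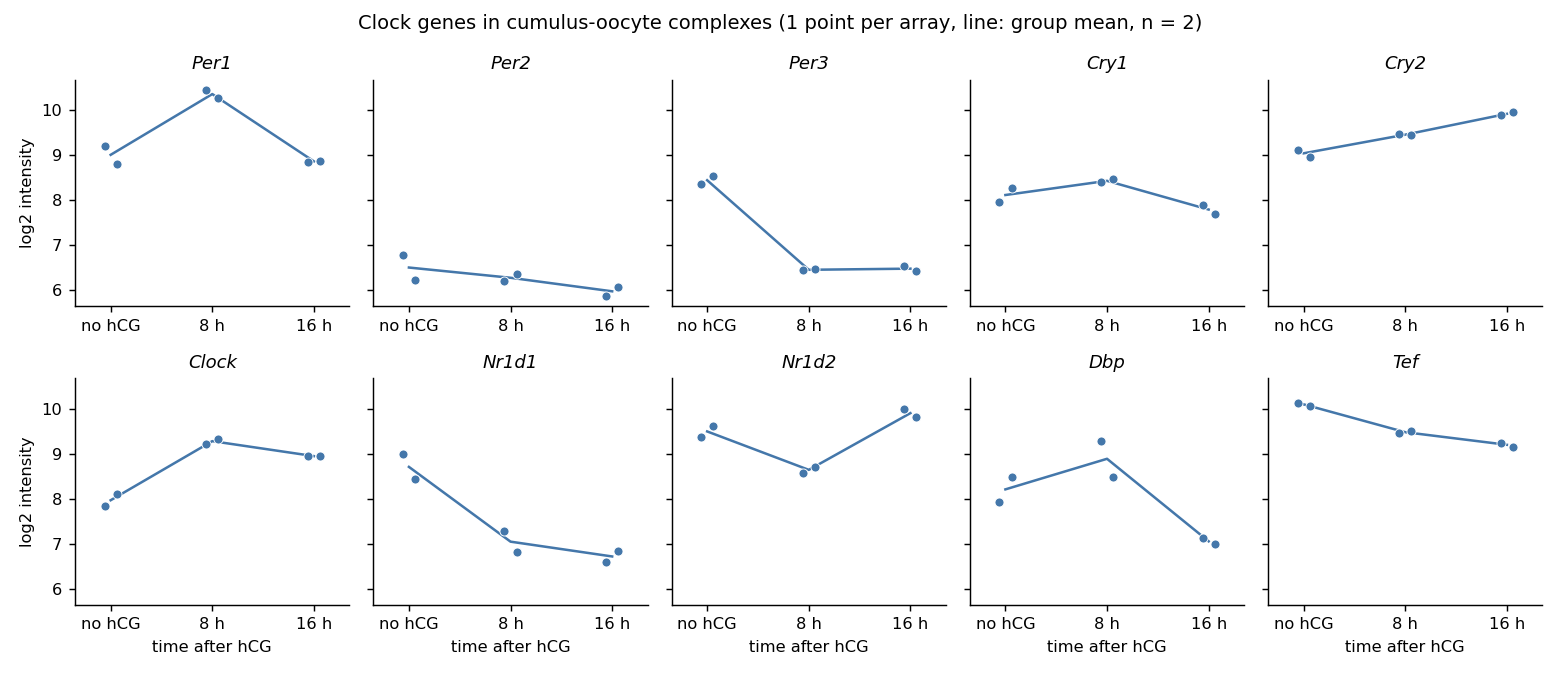
Log2 intensity of each clock gene (vertical axis) in complexes with no hCG and 8 h and 16 h after it (horizontal axis), with 1 point per array and a line through the means of 2 arrays. Per1 had both of its highest values at 8 h and Nr1d2 both of its lowest, and Per3 and Nr1d1 were lower at both later times than without hCG.

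Clock, the DNA-binding activator of the loop, had log2 intensities of 7.84 and 8.10 without hCG, 9.22 and 9.33 at 8 h, and 8.94 and 8.95 at 16 h. Both later groups stood above the arrays without hCG and did not overlap with them. The change was 1.31 ± 0.16 at 8 h (2.48-fold, adjusted p = 0.000174) and 0.98 ± 0.16 at 16 h (1.97-fold, adjusted p = 0.000972), both against no hCG. Between 16 h and 8 h it was −0.33 ± 0.16 and not called (adjusted p = 0.205, 95% interval −0.69 to 0.03). The gene's rise rests on 1 probe set of 3 tested. The other two, 1418660_at and 1435775_at, had changes of 0.36 and 0.65 at 8 h against no hCG, with the same sign but not called (adjusted p = 0.139 and 0.0655).

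Arntl, which encodes BMAL1, the partner of CLOCK, is not one of the 10 and was on a list of other clock genes. It had 8.97 and 8.78 without hCG, 9.48 and 9.39 at 8 h, and 10.49 and 10.41 at 16 h. Its groups did not overlap, and it rose in each comparison, by 0.56 ± 0.15 at 8 h against no hCG (adjusted p = 0.0186), by 1.01 ± 0.15 at 16 h against 8 h (adjusted p = 0.00153) and by 1.57 ± 0.15 at 16 h against no hCG (adjusted p = 3.63e-05). Npas2, which encodes an alternative partner of BMAL1, went the other way at 8 h, with a change of −1.65 against no hCG (adjusted p = 4.5e-05). It was higher at 16 h than at 8 h, by 0.85 (adjusted p = 0.0057), and its 8 h mean was under the limit for dim probe sets, so the sizes of its changes are uncertain.

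Per1, a repressor of the loop that many cells induce quickly after a hormone signal, had 9.21 and 8.80 without hCG, 10.44 and 10.26 at 8 h, and 8.84 and 8.88 at 16 h. Both 8 h arrays were above all others, and the 16 h arrays lay between the arrays without hCG. It was 2.54-fold higher at 8 h than without hCG (log2 change 1.35 ± 0.18, adjusted p = 0.000286) and 2.81-fold lower at 16 h than at 8 h (−1.49 ± 0.18, adjusted p = 0.000372). The change at 16 h against no hCG, −0.15 ± 0.18, was not called (adjusted p = 0.582) and had a 95% interval of −0.54 to 0.25. With replicate 1 of the complexes without hCG left out, that small change was 0.06. In size, 4.0% of all tested genes changed at least as much as Per1 between 16 h and 8 h.

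Per3, whose protein is a weaker repressor than its relatives and is known as an output of the clock, had 8.35 and 8.54 without hCG, 6.45 and 6.46 at 8 h, and 6.53 and 6.43 at 16 h. The later arrays overlapped with each other and were all far below those without hCG. The fall was 3.96-fold at 8 h (−1.99 ± 0.15, adjusted p = 1.06e-05) and 3.89-fold at 16 h (−1.96 ± 0.15, adjusted p = 8.61e-06), both against no hCG. Between 16 h and 8 h the change was 0.03 ± 0.15 (adjusted p = 0.946, 95% interval −0.32 to 0.37). At 8 h, 5.11% of all tested genes had changed by at least as much. Of 6 probe sets of Per3, 3 were tested. Among these, 1442243_at fell too, with changes of −0.53 at 8 h and −0.55 at 16 h against no hCG (adjusted p = 0.0197 and 0.0144), and 1421086_at was not called, with changes of −0.07 and 0.02 (adjusted p = 0.821 and 0.94).

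Per2, a core repressor close to Per1 in function, had probe sets that disagreed. Its brightest, 1457350_at, had 6.77 and 6.24 without hCG, 6.20 and 6.36 at 8 h, and 5.88 and 6.08 at 16 h. It was called in 0 of the 3 comparisons, with changes of −0.23 ± 0.20 at 8 h against no hCG, −0.30 ± 0.20 at 16 h against 8 h and −0.53 ± 0.20 at 16 h against no hCG (adjusted p = 0.444, 0.382 and 0.0647, unadjusted 0.282, 0.164 and 0.0256). The last was −0.80 and called (adjusted p = 0.0067) when replicate 2 of the complexes without hCG was left out, and −0.26 and not called (adjusted p = 0.344) when their replicate 1 was left out.

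Another probe set of Per2, 1417602_at, had 5.58 and 5.68 without hCG, 6.37 and 6.65 at 8 h, and 4.85 and 4.68 at 16 h. Its groups did not overlap. It was higher at 8 h than without hCG by 0.88 ± 0.16 (adjusted p = 0.00249), lower at 16 h than at 8 h with a change of −1.75 ± 0.16 (adjusted p = 9.85e-05) and lower at 16 h than without hCG with a change of −0.87 ± 0.16 (adjusted p = 0.00236). The third, 1417603_at, was not called in any comparison, with changes between −0.21 and 0.09. The annotation does not say which part of the transcript each probe set reads, so no direction is given for Per2. In the groups without hCG and at 16 h, 1417602_at lay close to or under the dim limit. Its mean over the 6 arrays, 5.63, passed that limit only through its 8 h arrays, so its calls are no support for a peak at 8 h.

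**Figure D2:**
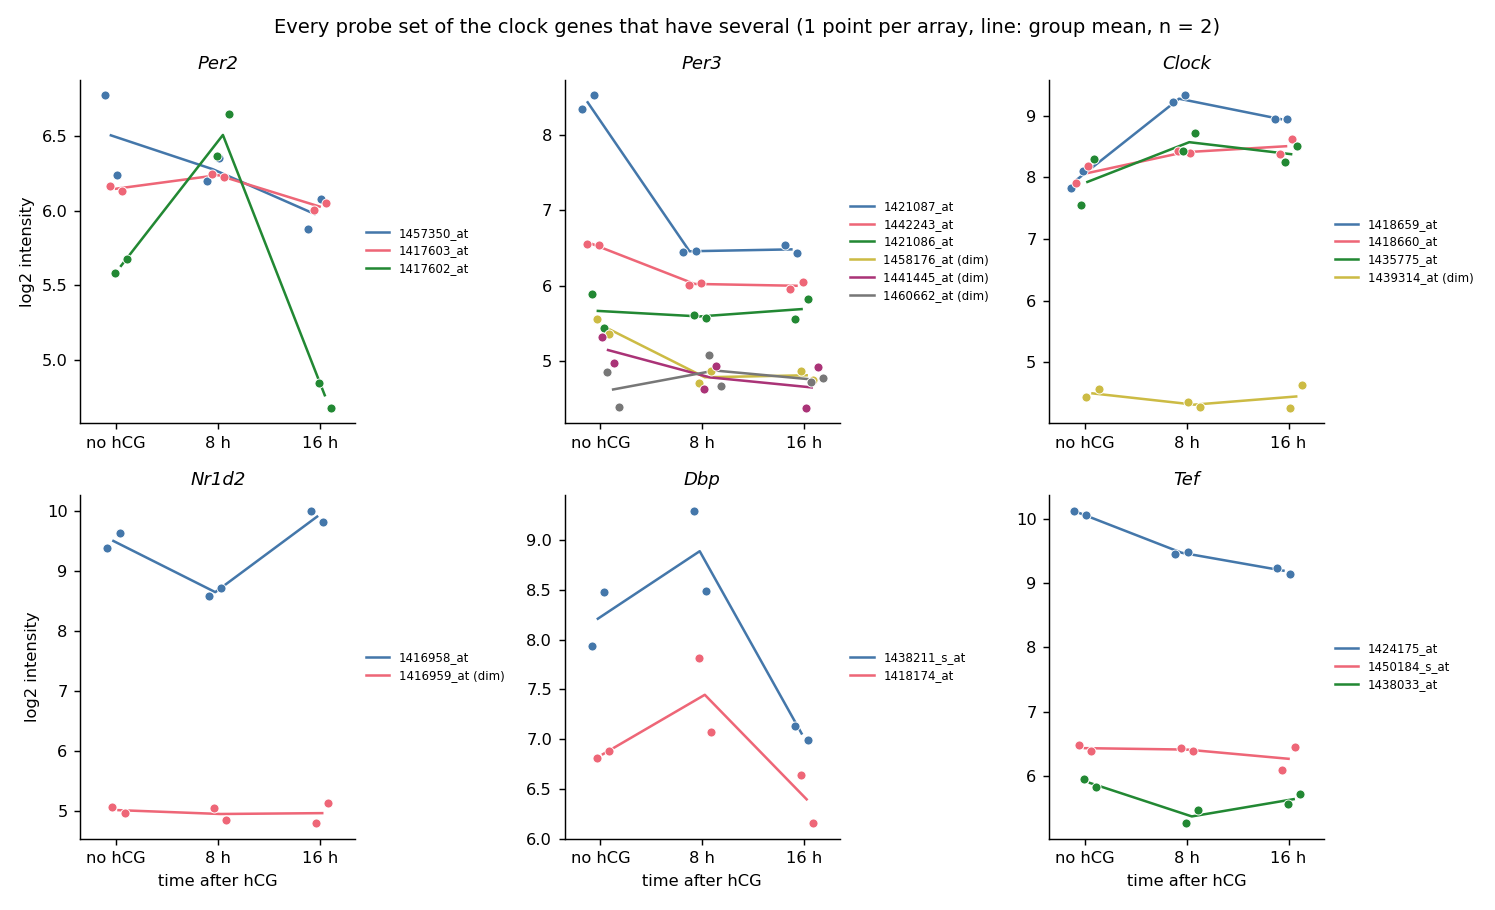
Log2 intensity (vertical axis) of every probe set of the 6 clock genes with several, in complexes with no hCG and 8 h and 16 h after it (horizontal axis), with 1 point per array, a line through the means of 2 arrays and dim probe sets marked. For Per2, 1417602_at peaks at 8 h while its brightest probe set does not, and for Dbp both probe sets are lowest at 16 h.

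The cryptochromes Cry1 and Cry2 encode the main inhibitors of CLOCK and BMAL1. Cry1 had 7.95 and 8.28 without hCG, 8.39 and 8.46 at 8 h, and 7.89 and 7.69 at 16 h. It was lower at 16 h than at 8 h (−0.64 ± 0.17, adjusted p = 0.0287), a call lost without replicate 1 or 2 of the 16 h group (adjusted p = 0.0783 and 0.175) and without replicate 1 or 2 of the 8 h group (0.129 and 0.165). Its changes of 0.31 ± 0.17 at 8 h and −0.32 ± 0.17 at 16 h against no hCG were not called (adjusted p = 0.197 and 0.176).

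Cry2 had 9.12 and 8.96 without hCG, 9.47 and 9.44 at 8 h, and 9.88 and 9.95 at 16 h. Its 3 groups stood apart in the order of time. At 16 h it was 1.83-fold higher than without hCG (0.87 ± 0.15, adjusted p = 0.00136). The single steps were not called, at 0.41 ± 0.15 for 8 h against no hCG (adjusted p = 0.0612) and 0.46 ± 0.15 for 16 h against 8 h (adjusted p = 0.0638). The second was called when either array without hCG was left out (adjusted p = 0.0416 for replicate 1 and for replicate 2), although these arrays enter only the estimate of the spread. Whether the changes of Cry1 and Cry2 differ from each other was not tested.

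Nr1d1, which encodes REV-ERBα, the repressor of Arntl, had 8.98 and 8.43 without hCG, 7.29 and 6.81 at 8 h, and 6.60 and 6.85 at 16 h. Both later groups were below the arrays without hCG and overlapped with each other. It was 3.16-fold lower at 8 h (−1.66 ± 0.23, adjusted p = 0.000378) and 3.96-fold lower at 16 h (−1.99 ± 0.23, adjusted p = 0.000104) than without hCG. The change between 16 h and 8 h was −0.33 ± 0.23 and was not called (adjusted p = 0.409, 95% interval −0.84 to 0.18). Of all tested genes, 6.31% changed by at least as much at 16 h against no hCG.

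Nr1d2, which encodes the related receptor REV-ERBβ, had 9.37 and 9.62 without hCG, 8.57 and 8.71 at 8 h, and 9.99 and 9.81 at 16 h. The 8 h arrays were below all others. It was 1.81-fold lower at 8 h than without hCG (−0.85 ± 0.17, adjusted p = 0.00306) and 2.39-fold higher at 16 h than at 8 h (1.26 ± 0.17, adjusted p = 0.00067). Its 16 h change against no hCG was 0.41 ± 0.17, not called (adjusted p = 0.0836), which was 0.53 and called (adjusted p = 0.0458) when replicate 2 of the complexes without hCG was left out, and 0.28 and not called (adjusted p = 0.297) when their replicate 1 was left out. The mean of its 2 probe sets, 1 of them dim, gave 0.18, not called (adjusted p = 0.29). Nr1d1 and Nr1d2 thus both fell at 8 h, and between 16 h and 8 h Nr1d2 rose while Nr1d1 was not called. The second probe set of Nr1d2 was dim and was not tested.

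Rora, on the list of other clock genes, encodes the ROR receptor that competes with REV-ERB proteins for the same sites. It had 7.53 and 8.07 without hCG, 10.55 and 10.65 at 8 h, and 11.40 and 11.60 at 16 h. Its groups did not overlap. It was higher at 8 h than without hCG by 2.81 (adjusted p = 5.98e-06) and at 16 h than at 8 h by 0.90 (adjusted p = 0.0116). Against no hCG, its change at 16 h was 3.70 (adjusted p = 9.14e-07).

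Dbp, an output transcription factor with one of the deepest rhythms known in liver, had 7.94 and 8.48 without hCG, 9.29 and 8.48 at 8 h, and 7.13 and 6.99 at 16 h. The 16 h arrays were the lowest, and the 8 h arrays differed from each other by more than those of any other of the 10 genes. It was 3.55-fold lower at 16 h than at 8 h (−1.83 ± 0.27, adjusted p = 0.0013), and 2.49% of all tested genes changed by at least as much. The second probe set, 1418174_at, fell too in this comparison (−1.05 ± 0.25, adjusted p = 0.0173).

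At 8 h against no hCG, the change of Dbp, 0.68 ± 0.27, missed the threshold (adjusted p = 0.0824). Leaving out replicate 2 at 8 h gave 1.08 (adjusted p = 0.0153), and leaving out replicate 2 of the complexes without hCG gave 0.95 (adjusted p = 0.0229), both called. Leaving out replicate 1 at 8 h or replicate 1 of the complexes without hCG gave 0.27 and 0.41, not called (adjusted p = 0.548 and 0.33). Dbp was lower at 16 h than without hCG, at −1.15 ± 0.27 (adjusted p = 0.00759). That call was lost without replicate 1 or 2 of the 16 h group (adjusted p = 0.0504 and 0.0727), and for the probe set 1418174_at the change was −0.45 and not called (adjusted p = 0.197).

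Tef, which encodes a PAR bZIP factor that binds the same D-box, had 10.13 and 10.06 without hCG, 9.46 and 9.49 at 8 h, and 9.24 and 9.15 at 16 h. Its groups did not overlap and followed the order of time downward. It was lower at 16 h than without hCG with a change of −0.90 ± 0.15 (1.86-fold, adjusted p = 0.00103) and lower at 8 h than without hCG with a change of −0.62 ± 0.15 (1.53-fold, adjusted p = 0.00945). The call at 8 h was lost without replicate 1 or 2 of the 8 h group (adjusted p = 0.0746 and 0.0628). Between 16 h and 8 h its change was −0.28 ± 0.15 (adjusted p = 0.254). Of its other probe sets, 1438033_at fell at 8 h by 0.52 against no hCG (adjusted p = 0.0308) and 1450184_s_at had a change of −0.02 (adjusted p = 0.94). The mean of 1438033_at, 5.63, was barely over the dim limit, which it passed through its arrays without hCG. Its 8 h mean, 5.37, was under that limit, so its call is no independent support for a fall. At 16 h against no hCG neither was called, with changes of −0.25 and −0.17 (adjusted p = 0.261 and 0.497). Between 16 h and 8 h, 1438033_at had a change of 0.27, not called (adjusted p = 0.319). The call at 16 h thus rests on the brightest probe set alone.

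Nfil3, on the list of other clock genes, encodes the repressor that competes with DBP and TEF for the D-box. It had 9.52 and 9.22 without hCG, 11.38 and 11.38 at 8 h, and 10.43 and 10.21 at 16 h. It was higher at 8 h than without hCG by 2.01 (adjusted p = 1.73e-05), lower at 16 h than at 8 h with a change of −1.06 (adjusted p = 0.00202) and higher at 16 h than without hCG by 0.96 (adjusted p = 0.00155). Its 8 h arrays were above all others.

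**Figure D3:**
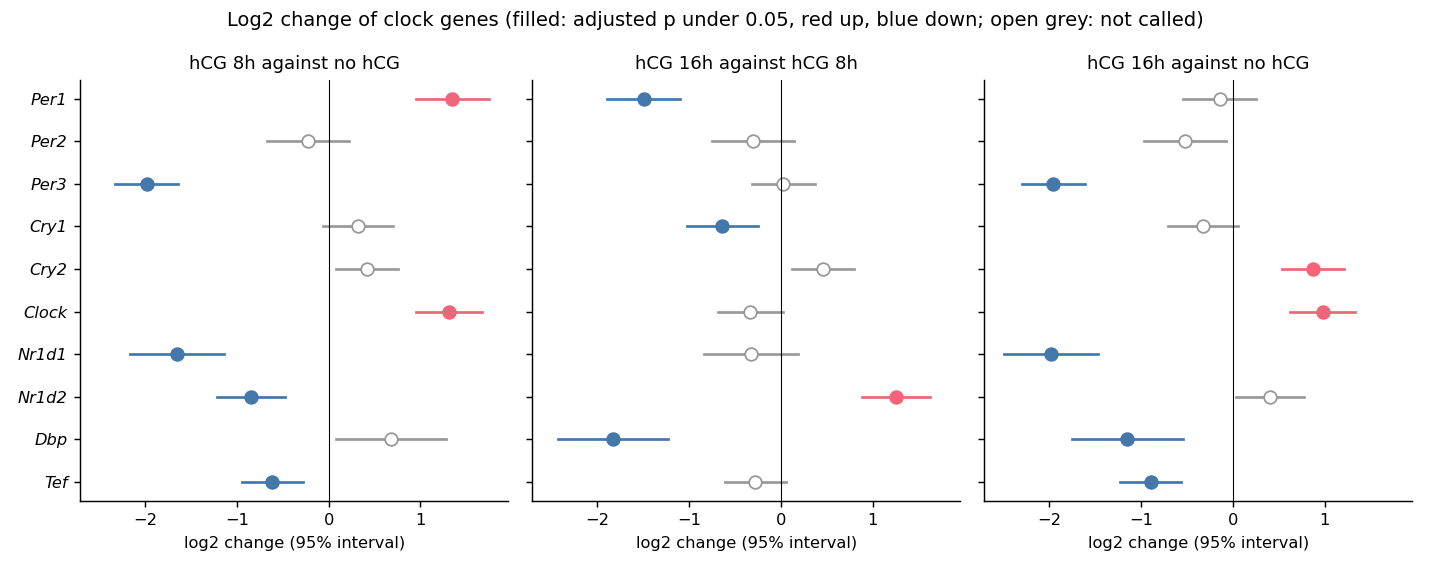
Log2 change of the 10 clock genes (horizontal axis, bars give 95% intervals of the limma fit, n = 2 arrays per group) in the 3 comparisons, with filled points for calls at an adjusted p under 0.05. Per3 and Nr1d1 lie near −2 at 16 h against no hCG, and Per1 lies above 0 at 8 h against no hCG and below 0 at 16 h against 8 h.

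Between 16 h and 8 h, Nr1d2 rose and Per1, Cry1 and Dbp fell. This made 4 of 10 genes called, 1 upward and 3 downward, where 20.9% of all tested genes were called, 11.8% upward and 9.12% downward. The median change was −0.31 for the 10 genes and 0.01 for all genes.

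At 16 h against no hCG, Cry2 and Clock were higher and Per3, Nr1d1, Dbp and Tef were lower. These were 6 of 10 genes, 2 upward and 4 downward, where 41.6% of all tested genes were called, 20.8% upward and 20.8% downward. The median change was −0.42 for the 10 genes and −0.02 for all genes. The 3 comparisons share arrays, so their calls are not independent of each other.

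Counted by probe set, 3 of the 19 tested rose and 6 fell at 8 h against no hCG, where 33.9% of all tested probe sets were called, 16.4% upward and 17.5% downward. In the comparison of 16 h with 8 h, 1 rose and 5 fell, where 18.2% were called, 9.76% upward and 8.45% downward. Against no hCG at 16 h, 2 rose and 6 fell, where 37.3% were called, 19.0% upward and 18.3% downward. Probe sets of 1 gene share their transcript and are not replicates.

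By the size and shape of their time course, the closest pair among the 9 genes called in any comparison was Per3 and Nr1d1, with a root mean square difference of 0.32 between their log2 values over the 6 arrays, each centred on its own mean. Among genes outside the 10, the measure found closer matches. All other tested genes were searched for them rather than 9, so closer matches follow from that number and do not bear on likeness among clock genes. For Per3 these were Rbm20, Eya2 and Dlc1 (0.056, 0.062 and 0.069), and for Nr1d1 Gpr35, Ccdc201 and Aknad1 (0.10, 0.14 and 0.15). Those closest to Per1 were Timp2, Sorl1 and Dysf (0.092, 0.10 and 0.11), and to Nr1d2 Hebp1, Dmac2 and Ext1 (0.063, 0.087 and 0.11). Those closest to Clock were Ctps2, Tmx1 and B3glct (0.059, 0.063 and 0.065), and to Cry2 Tgoln1, Pnpla6 and Phc3 (0.061, 0.061 and 0.064). Eif1ad, Ubqln2 and Gcsh (0.050, 0.057 and 0.060) were closest to Cry1, and Nudc, Phpt1 and Stmn1 (0.037, 0.056 and 0.059) to Tef. Dbp had the most distant matches, Osbpl6, Klf15 and Sntg2 (0.15, 0.22 and 0.24).

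Beyond the 10 genes, 26 of 31 other clock genes were tested, which cover activators, repressors, ROR receptors, enzymes that act on PER and CRY proteins, and rhythmic output genes. At 8 h against no hCG, 8 rose and 5 fell, with a median of 0.24. In the comparison of 16 h with 8 h, 4 rose and 6 fell, with a median of 0.03, and at 16 h against no hCG, 7 rose and 7 fell, with a median of 0.10. Of all tested genes, 16.9% rose and 20.5% fell in the first of these comparisons, and 11.8% and 9.12% in the second. In the third, 20.8% did in each direction.

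Repressors other than PER and CRY moved apart from each other. Of the 5 tested, 3 rose and 2 fell at 8 h against no hCG, where 16.9% and 20.5% of all tested genes did. Bhlhe40, which encodes the E-box repressor DEC1, rose in every comparison, by 1.10 at 8 h and 1.85 at 16 h against no hCG (adjusted p = 0.000992 and 3.16e-05) and by 0.75 at 16 h against 8 h (adjusted p = 0.0165). Ciart, which encodes the repressor CHRONO, had 8.99 and 8.60 without hCG, 6.93 and 7.05 at 8 h, and 7.07 and 6.89 at 16 h. It fell at both times against no hCG, with changes of −1.80 at 8 h and −1.81 at 16 h (adjusted p = 4.54e-05 and 3.72e-05), and its change between 16 h and 8 h was −0.01 (adjusted p = 0.981). Timeless, which in mammals is also known for its part in DNA replication, fell in every comparison, with changes of −1.61 at 8 h and −2.63 at 16 h against no hCG (adjusted p = 3.05e-05 and 1.23e-06) and −1.02 at 16 h against 8 h (adjusted p = 0.00128). Cipc, which encodes a CLOCK-interacting repressor, rose by 0.74 at 8 h against no hCG (adjusted p = 0.00643) and fell by 0.90 at 16 h against 8 h (adjusted p = 0.00459). Its change at 16 h against no hCG was −0.16, not called (adjusted p = 0.518).

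Among enzymes that modify or degrade PER and CRY proteins, Usp2 and Btrc fell at 8 h against no hCG. Of 9 tested, 0 rose and 2 fell at 8 h against no hCG, 0 were called by limma at 16 h against 8 h (1 at an unadjusted p under 0.05), and 1 rose and 1 fell at 16 h against no hCG, where 37.4%, 20.9% and 41.6% of all tested genes were called. At 8 h the changes were −1.64 for Usp2, which encodes a deubiquitinating enzyme (adjusted p = 0.000274), and −0.53 for Btrc, which encodes a subunit of a ubiquitin ligase for PER proteins (adjusted p = 0.0217). Usp2 also fell at 16 h against no hCG (−2.02, adjusted p = 6.08e-05), and the casein kinase gene Csnk2a1 rose by 0.45 (adjusted p = 0.0401). The casein kinase 1 genes Csnk1d and Csnk1e, whose products phosphorylate PER proteins, were not called in any comparison, with changes of 0.10 and −0.37 at 8 h against no hCG (adjusted p = 0.675 and 0.122).

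Output genes with rhythms in many tissues rose in 3 of 7 cases and fell in 0 at 8 h against no hCG, and rose in 0 and fell in 3 at 16 h against 8 h. The shares of all tested genes called upward and downward were 16.9% and 20.5% in the first comparison and 11.8% and 9.12% in the second. Tsc22d3, a glucocorticoid-induced gene, had 8.86 and 9.16 without hCG, 11.94 and 12.17 at 8 h, and 9.46 and 9.26 at 16 h. It was higher at 8 h than without hCG by 3.04 (adjusted p = 2.11e-06) and lower at 16 h than at 8 h with a change of −2.69 (adjusted p = 1.33e-05). Klf9, which encodes a transcription factor, also rose and then fell in these comparisons, at 1.18 and −1.98 (adjusted p = 0.00197 and 0.000203). Alas1, the first enzyme of heme synthesis, rose by 0.62 at 8 h (adjusted p = 0.0115).

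At 16 h against no hCG, 2 of the 7 output genes rose and 3 fell, where 20.8% of all tested genes did in each direction. Wee1, a kinase that holds back entry into mitosis, was lower at 16 h, with a change of −1.10 against no hCG (adjusted p = 0.00042) and a change of −1.07 against 8 h (adjusted p = 0.00124). Klf9 and Klf10 fell too, with changes of −0.80 and −0.57 against no hCG (adjusted p = 0.0144 and 0.0218), and Alas1 rose by 0.68 (adjusted p = 0.00634).

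**Figure D4:**
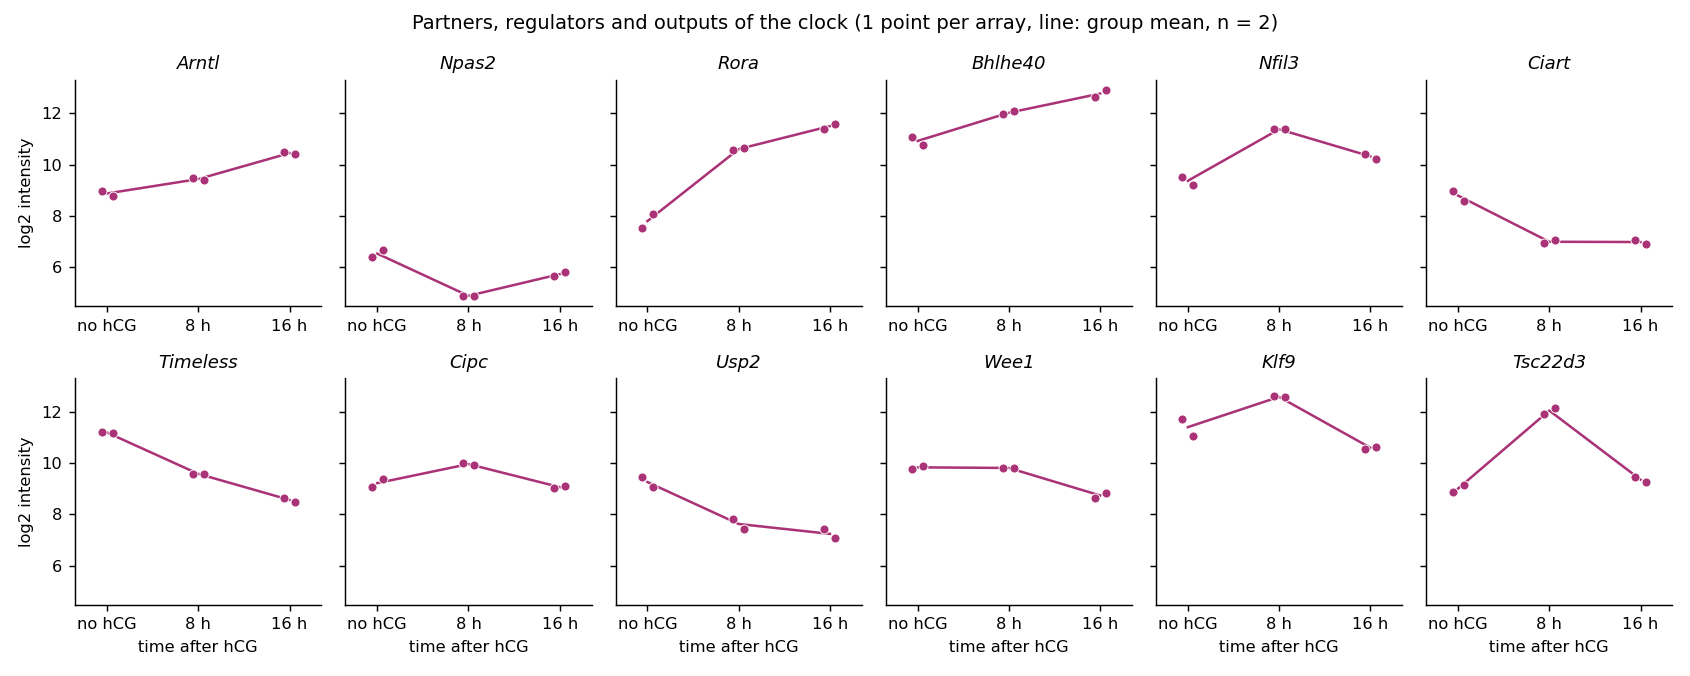
Log2 intensity (vertical axis) of 12 genes around the clock in complexes with no hCG and 8 h and 16 h after it (horizontal axis), with 1 point per array and a line through the means of 2 arrays. Arntl, Rora and Bhlhe40 are higher at each later time, Ciart and Timeless are lower at both later times than without hCG, and Nfil3, Klf9 and Tsc22d3 are highest at 8 h.

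Markers of the cells in a complex moved with these changes. Of 16 tested oocyte markers, 16 fell at 8 h and 16 fell at 16 h against no hCG, with medians of −2.22 and −1.42. The shares of all tested genes that fell in these comparisons were 20.5% and 20.8%. At 16 h against 8 h, 5 rose and 6 fell, where 11.8% and 9.12% of all tested genes did. The summed intensity of 18 oocyte genes was 56080 to 66210 without hCG. It was 12780 to 13900 at 8 h and 15660 to 18640 at 16 h. Of 13 cumulus and granulosa markers, 4 rose and 6 fell at 8 h against no hCG, where 16.9% and 20.5% of all tested genes did. At 16 h against no hCG, 4 rose and 8 fell, where 20.8% of all tested genes did in each direction. The markers that rose were Has2, Ptx3, Tnfaip6 and Ptgs2 at both times. Their means were 5.72, 6.63, 5.01 and 5.50 without hCG, in the complexes labelled expanded, and 9.0, 12.6, 9.6 and 11.7 at 8 h. The 13 markers summed to 59000 to 60090 without hCG, 44400 to 54870 at 8 h and 35880 to 40620 at 16 h. The zona gene Zp3 and the cumulus gene Has2, which mark the labelled cells, are on these lists and were above the dim limit.

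Leukocyte markers rose in 13 of 14 tested cases at 16 h against 8 h, with a median of 2.11, and in 3 of 14 at 8 h against no hCG. Of all tested genes, 11.8% and 16.9% rose in these comparisons, so the second count is near that share. The sum over the 16 leukocyte genes was 4239 to 4381 without hCG, 3891 to 4051 at 8 h and 10560 to 10650 at 16 h. Laptm5, which was not called in any comparison, was the brightest of them without hCG and at 8 h and weighs most in those sums. The sums thus do not show the called rises of Cd14, Csf1r and Cd52 at 8 h. Oviduct epithelium markers rose in 4 of 7 cases at 16 h against 8 h, where 11.8% of all tested genes did. Against no hCG, 2 of the 7, Krt8 and Cdh1, fell at 8 h, where 20.5% of all tested genes did. At 16 h against no hCG, 3 rose and 4 were not called, where 20.8% of all tested genes rose. Foxj1 and Pax8 were dim and not tested. The sum over the 9 oviduct genes was 3136 to 3483 without hCG, 1925 to 2013 at 8 h and 9313 to 10930 at 16 h. Krt8, Ovgp1 and Krt18 were the brightest at 16 h. Among 9 theca and stroma markers, 5 fell at 8 h and 7 at 16 h, both against no hCG. Of all tested genes, 20.5% and 20.8% fell in these comparisons. Of 7 endothelial markers 5 were too dim to be tested. Of the 2 tested, the cadherin gene Cdh5 was higher at 8 h and at 16 h than without hCG, by 2.86 and 2.96 (adjusted p = 2.16e-05 and 1.34e-05), and the VEGF receptor gene Kdr at 16 h, by 0.49 (adjusted p = 0.0244), with an uncalled 0.28 at 8 h (adjusted p = 0.185). The sum over the 7 was 352 to 378 without hCG, 577 to 667 at 8 h and 670 to 676 at 16 h. Of 2 tested erythrocyte markers 0 were called by limma in any comparison, where at most 1 had an unadjusted p under 0.05. An array has no true 0 of signal. The part of these shifts in the changes of the clock genes was not tested.

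**Figure D5:**
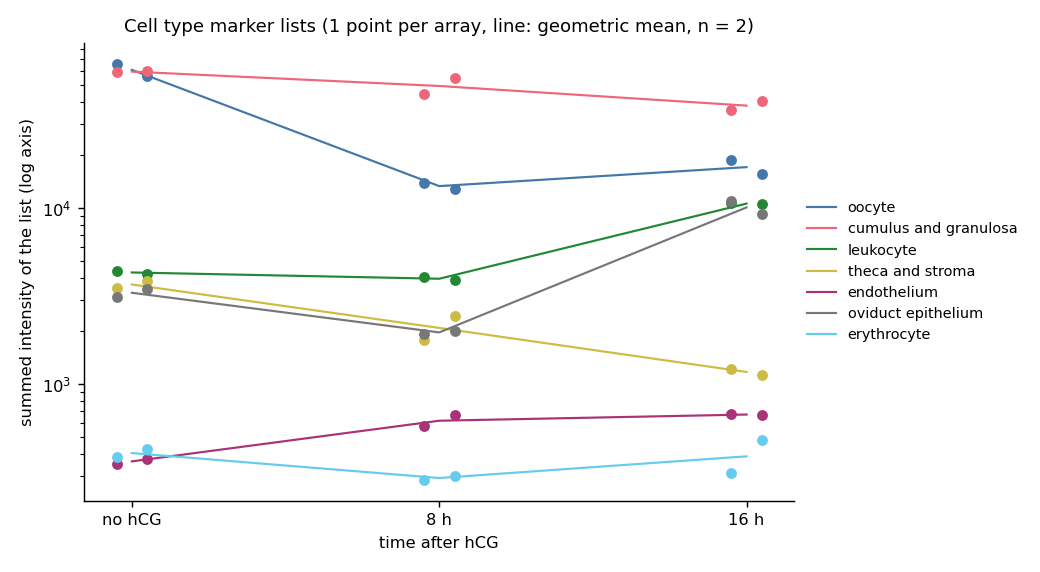
Summed intensity of 7 cell type marker lists (vertical log axis) in complexes with no hCG and 8 h and 16 h after it (horizontal axis), with 1 point per array and a line through the geometric means of 2 arrays, to be read within a list. The oocyte sum is lower at both later times than without hCG, and the leukocyte and oviduct epithelium sums are highest at 16 h.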

How the data were processed

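RNA of 6 pools of mouse cumulus-oocyte complexes had been hybridised as biotin-labelled cRNA to 1 array each. The deposited table held log2 intensities, between 3.32 and 15.5, with 1 value for each probe set on an array. That the scale is log2 is inferred from this range. Software, background correction and normalization are not given in the sources used here. Arrays were assigned to groups by their titles.

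Of 45101 probe sets, 64 controls were left out. The platform's annotation gave 34945 probe sets 1 symbol, 932 several and 9160 none, and only the first were named. Probe sets under the 40th percentile of the mean were not tested, which left 27022 probe sets and 13559 genes. A group means model was fitted in R 4.3.3 by limma 3.58.1, using lmFit and eBayes with 3 residual and 6.43 prior degrees of freedom and two-sided tests, with Benjamini-Hochberg adjustment. Adjusted p-values come from this fit, or from limma under the alternative named beside them. The fit was tested on simulated data. Precision is limited by having 2 arrays per group.

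The 10 genes and the lists were chosen with earlier results of these data known. Named genes were all 10, up to 4 called genes with the largest changes per further list and comparison, and the 3 closest genes per called member. Genes given beyond that rule (Csnk1d, Csnk1e, Zp3, Has2, Ptx3, Tnfaip6, Ptgs2, Cdh5, Kdr and Sik1) were chosen after their values were seen. Alternatives were other normalizations, dim filters, probe set rules, variance models, only the compared groups, a replicate block and leaving out each array.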

Additional observations from a re-analysis of the deposited data

How the results depend on the processing

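The number of the 10 genes called was within 1.5 times the reported number under every alternative run. It ranged from 5 to 7 at 8 h against no hCG (6 reported), from 3 to 6 at 16 h against 8 h (4 reported) and from 5 to 8 at 16 h against no hCG (6 reported). Of 444 values of single genes under an alternative, 416 had the same direction and side of the threshold, 14 were newly called, 9 lost their call and 5 changed sign. Changes of sign were all in uncalled values. Per1 at 16 h against no hCG ranged from −0.348 to 0.0573 with 1 array left out, above 0 when that was replicate 1 of the complexes without hCG. Leaving out that array also gave Per2 a change of 0.0411 at 8 h against no hCG, and the mean of the probe sets gave it 0.247. Per3 at 16 h against 8 h was −0.0223 with that mean, and ranged from −0.0273 to 0.0779 with 1 array left out, below 0 when that was replicate 1 at 16 h. With the mean of its probe sets, Per2 was called lower at 16 h, with a change of −0.75 against 8 h and −0.50 against no hCG (limma, adjusted p = 0.00431 and 0.0139). That mean includes 1417602_at, whose change at 16 h against 8 h was −1.75 and which passed the dim limit only through its 8 h arrays. Averaging probe sets kept the direction of the called changes of Clock, Per3, Nr1d2 and Tef with smaller sizes. At 8 h against no hCG they were 0.53, −0.56, −0.46 and −0.39. The averages of Clock, Per3 and Nr1d2 include dim probe sets that were not tested, so their smaller sizes do not show a weaker change of the gene. Cry2 at 8 h against no hCG was called after centring arrays on their medians (adjusted p = 0.0458), under a dim limit at the 60th percentile (0.0483) and when probe sets were averaged (0.0325). Per2 was too dim for the 60th percentile and has no value there. Cry1 has no value where probe sets ending in _x_at, _s_at or _a_at were left out, as its only one ends in _a_at. The cause of these shifts was not tested.

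The replicate block, with the replicate number of the titles as a term, gave 6, 4 and 6 called genes, as without it. Deviations of same-numbered arrays from their group means were compared across probe sets. The correlation was 0.468 (no hCG and 8 h), 0.00103 (no hCG and 16 h) and 0.135 (8 h and 16 h). The numbers were not taken as pairs, because they are not said to mark a shared pool. Whether same-numbered arrays without hCG and at 8 h shared a step was not tested. With 2 arrays per group and the signal over background unknown, small changes of dim probe sets cannot be resolved.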

Other observations

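Genes known to be induced by cAMP and CREB, as Per1 is in many cells, were also measured. Their list also held genes of CREB coactivators, which were not called in any comparison. Of the 15 tested on this list, 5 rose and 2 fell at 8 h against no hCG, with a median of 0.00. Of all tested genes, 16.9% rose and 20.5% fell. The largest rises were those of the phosphodiesterase genes Pde4d and Pde4b (3.69 and 2.53) and of Crem, which encodes a cAMP-responsive regulator of transcription (2.87; limma, adjusted p = 7.42e-07, 2.76e-05 and 1.3e-06). The nuclear receptor gene Nr4a2 fell by 0.98 (adjusted p = 0.00233). At 16 h against 8 h, 1 rose and 5 fell, where 11.8% and 9.12% of all genes did. Nr4a2 rose by 2.48 and the AP-1 gene Fosb fell by 2.38 (adjusted p = 2.51e-05 and 0.000105). At 16 h against no hCG, 4 rose and 3 fell, where 20.8% of all genes did in each direction, with Pde4d, Pde4b and Crem at 2.75, 2.09 and 2.04 and Fosb at −3.21 (adjusted p = 2.08e-06, 7.93e-05, 6.19e-06 and 4.4e-06). Sik1, a kinase gene induced by CREB in many cells and chosen here after its values were seen, had changes of 0.00 at 8 h and 0.14 at 16 h against no hCG (adjusted p = 0.996 and 0.632).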
